A study of Mus musculus with 29 samples.

Results

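The 36 genes of the aminoacyl-tRNA synthetases were followed through 29 mouse RNA-seq libraries. They were chosen by gene symbol, 20 as cytosolic and 16 as mitochondrial enzymes, out of 47357 gene identifiers present in every library. All 36 were found and passed the low-count filter in each of the 3 sets of libraries: isolated crypts, intestinal tissue and organoids. Mars1 is listed as Mars in the annotation used.

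Aminoacyl-tRNA synthetases attach each amino acid to its transfer RNA and so supply the ribosome. The cytosol and the mitochondrion hold separate sets of enzymes, and nuclear genes encode both, most mitochondrial enzymes carrying the suffix 2. Gars and Kars each encode a cytosolic and a mitochondrial form. Eprs encodes 1 protein that charges the tRNAs of both glutamate and proline, and Farsa and Farsb encode the 2 subunits of the cytosolic phenylalanine enzyme. In the cytosol, Dars, Eprs, Iars, Kars, Lars, Mars1, Qars and Rars proteins sit in the multisynthetase complex on the scaffold proteins encoded by Aimp1, Aimp2 and Eef1e1. When charged tRNA runs short, the kinase GCN2 phosphorylates eIF2, the transcription factor ATF4 is made, and ATF4 raises many cytosolic synthetase genes together with amino acid synthesis and transport genes. Synthetase genes are also raised with cell growth, and Wars is a classic interferon-gamma-induced gene.

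The mice were of strain C57BL/6. The allele written H2B is read here, from the study's title, as Rnaseh2b, a subunit gene of the nuclease that removes ribonucleotides from DNA, and dIEC as deletion in intestinal epithelial cells. Crypts came from 4 control mice, genotype H2B flox/flox, and 4 H2BdIEC mice, all 52 weeks old. Tissue came from 4 mice of genotype H2B/p53dIEC, which lack Rnaseh2b and p53 in the epithelium, as 1 tumor and 1 sample of adjacent tissue from each mouse (1349, 1323, 1322 and 1319), and from 4 control mice of genotype H2B/p53 flox/flox (1315, 1316, 1320 and 1321), whose samples are also called adjacent normal tissue. Organoids were 3 of genotype H2BdIEC, 3 of genotype H2B/p53dIEC, named H2Bp53dIEC here, and 3 controls titled wild type whose genotype is given as H2B/p53 flox/flox. Ages are given only for the crypt mice. The labels do not say whether organoid replicates came from different animals or cultures, so p-values in organoids rest on variation that may be technical. The H2Bp53dIEC organoids are titled in another pattern than the other 2 groups, and with no batch in the labels, genotype and preparation cannot be told apart there.

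Library totals ran from 5774771 to 41504298 gene counts in 28 libraries, and tissue control 1320 had 401365. In that library Vars rests on 20 counts and Gars on 28. Calls of synthetase genes that change without it are named, for Lars2 with adjacent sample 1323 left out too. Group means, ranges and overlaps include it. Rnaseh2b, as CPM (counts per 1000000 gene counts of the library), was at 7.38 to 22.4 in control crypts, tissue and organoids and at 1.11 to 7.52 in the deleted groups, without overlap within a set. Trp53, the p53 gene, was at 10.3 to 12.1 in H2Bp53dIEC and 76.8 to 113 in the other organoids, and at 13.1 to 36.3 in tumors and adjacent tissue against 34.0 to 46.8 in tissue controls. Summed epithelial markers reached at least 5713 CPM in every library. In organoids the summed markers reached at most 0.148 CPM for T cells, 0.697 for fibroblasts, 0.571 for smooth muscle, 1.53 for endothelium and 2.82 for macrophages. Not all lists were that low there: acinar pancreas markers were at 21.4 to 33.2 and plasma cell markers at 661 to 762 CPM. Up to 6 of 8 and 3 of 6 of those markers had 0 counts in a library. Tissue holds T cells, fibroblasts and smooth muscle, and in bulk samples fewer cells of a type and less RNA per cell cannot be told apart.

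Before the values, the promoters that hold the ATF4 element are shown, since several cytosolic synthetase genes are known ATF4 targets. RefSeq promoters on GRCm38.p6, from 250 bases before to 50 after a transcription start, were matched by symbol for 13 of 20 cytosolic and 14 of 16 mitochondrial genes. Cars, Hars, Lars, Nars, Rars, Vars, Wars, Hars2 and Pars2 were not matched. The core of the composite element bound by ATF4 and C/EBP proteins, TGATGCAA on either strand, was present in 4 of the 13 cytosolic promoters, against 1.03% of all 27025 genes with a promoter. It was present in 0 of the 14 mitochondrial promoters and in 4 of 24 other ATF4 target genes. Each stretch of 30 bases is printed on the gene's strand with the core, in either orientation, in capitals. The coordinates are chr8:111033714-111033743 (Aars, plus strand, core 112 bases before the start), chr13:49682121-49682150 (Iars, plus, 7 after), chr15:11399660-11399689 (Tars, minus, 15 before) and chr4:129189890-129189919 (Yars, plus, 3 after).
Aars: ctagctttcttgagcaTTGCATCAgccgag
Iars: cctggcactgtcagtaTTGCATCAcctcca
Tars: ggggccaggagtcccgTTGCATCAgctggt
Yars: gagcgacgagctcagcTGATGCAAcccgac
In Aars, Iars and Yars the whole stretch also lies in an annotated exon of the same gene, and in Tars 6 of its bases do. A match is a description of these letters and not a shown binding site. An E-box, CACGTG, was present in 4 of the 13 cytosolic promoters (Aars, Farsb, Iars and Tars) and in 1 of the 14 mitochondrial ones (Ears2), against 8.09% of all genes. Of the interferon motifs, TTCNNNGAA was in Aars and Kars, with 1 mitochondrial promoter (Nars2) and 9.55% of all genes, and an interferon-stimulated response element was in Qars alone, against 3.99% of all genes. All motifs were searched on both strands.

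Levels were first compared between genes as counts per kilobase of merged exons, scaled to the same total in each library in the manner of TPM (length-scaled level). Merged exons include every annotated isoform, so genes with long rare isoforms such as Eprs and Aars may be placed too low. Averaged over the 8 groups, the cytosolic order was led by Nars (243), Gars (192) and Rars (145), the asparagine, glycine and arginine enzymes, and ended with Cars (24.8) and Farsa (24.3), whose values lie too close to be ordered. By CPM without the length, 3 of the 5 highest cytosolic genes, Nars, Gars and Sars, were the same. The mitochondrial order was led by Lars2 (103), Iars2 (45.3) and Rars2 (38.6), and Wars2 (6.22) was lowest. For 14 or 15 of the 16 mitochondrial genes, depending on the group, the cytosolic counterpart was the higher of the pair, with median ratios between 2.48 in control crypts and 4.56 in tumors.

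The leucine pair in tissue was the widest exception. Lars2 was at 103 ± 56.4, 139.7 ± 44.96 and 275 ± 90.1 (SD, n = 4 each) in control, adjacent and tumor tissue, while Lars, its cytosolic counterpart, was at 20.05 ± 3.80, 18.8 ± 3.75 and 46.8 ± 6.17 on the same length-scaled level. Lars2 alone made up 25.0% to 64.4% of the mitochondrial synthetase sum in the 12 tissue libraries and 6.73% to 23.8% in the crypt and organoid libraries. For that reason the mitochondrial sum is given without it. Without Lars2 the 15 other mitochondrial genes summed to 151 ± 24.9 in control tissue, 138 ± 27.0 in adjacent tissue and 224 ± 20.6 in tumors.

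The 20 cytosolic genes summed to 914 ± 85.0 in control tissue, 966 ± 173 in adjacent tissue and 1875 ± 190.3 in tumors (SD, n = 4 each). The 4 tumors, from 1697 to 2069, lay above all 8 other tissue libraries, of which the highest was at 1208. In organoids the sum was 2852 ± 144 in controls, 2749 ± 61.5 in H2BdIEC and 2426 ± 22.3 in H2Bp53dIEC (n = 3 each), and the H2Bp53dIEC libraries, from 2402 to 2446, lay below all others. Organoids stood highest in the series, with no test between sets because the sets were prepared apart. In crypts the sum was 955 ± 94.6 in controls and 632 ± 152 in H2BdIEC (n = 4 each), but this scale falls when other RNA takes a larger share of a library. Transcripts of the mitochondrial genome made up 9.30% to 15.7% of H2BdIEC crypt counts. In control crypts 1, 2 and 3 they made up 4.33% to 5.09%, and in control crypt 4 they made up 10.4%. TMM-scaled CPM, used for every test here, allows for such shifts.

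**Figure D1:**
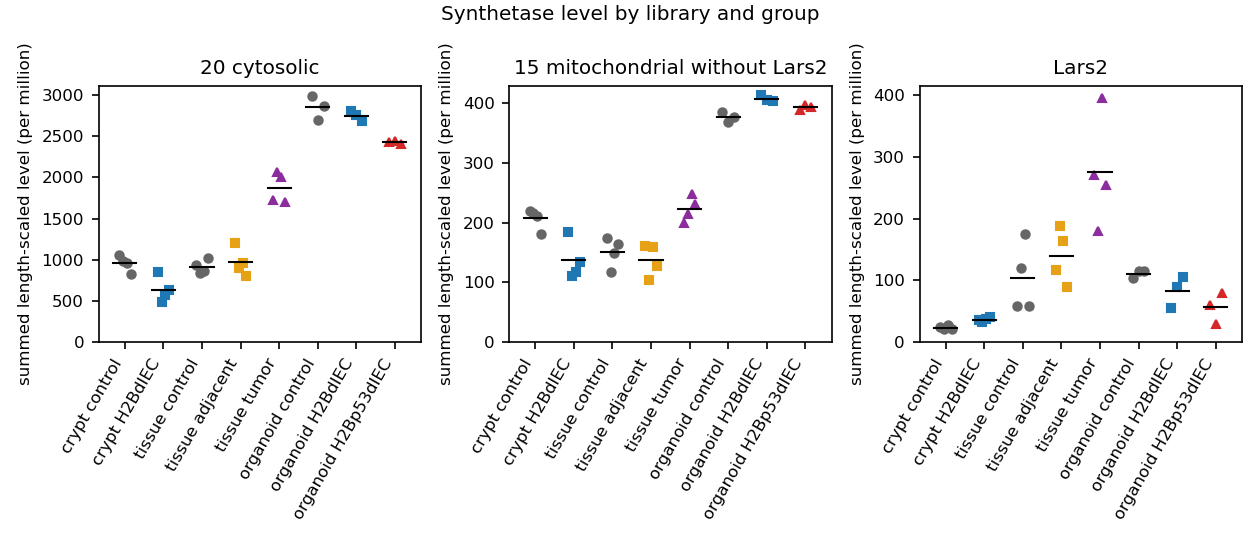
Length-scaled level (counts per kilobase, scaled as TPM) in each library by group: the sum of the 20 cytosolic genes, the sum of the 15 mitochondrial genes without Lars2, and Lars2 alone. Points are libraries and bars are group means; the 4 tumors exceed every other tissue library in the cytosolic panel, the H2Bp53dIEC organoids lie below the other organoids there, and Lars2 alone exceeds the other 15 together in several tissue libraries.

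Each comparison used edgeR's quasi-likelihood F test over the whole table, with Benjamini-Hochberg adjustment across every gene in it, and a gene with adjusted p below 0.05 counts as called. Values after ± are the standard error (SE) for log2 fold changes and the SD for CPM. Tumors were set first against their adjacent tissue. Of the 20 cytosolic genes 10 rose in tumors and 0 fell, and of the 16 mitochondrial genes 4 rose and 0 fell. Over all 17666 genes tested, 23.0% were called higher and 24.0% lower, so calls were common in this comparison. The median log2 difference was 0.50 over the cytosolic genes, 0.30 over the mitochondrial genes and -0.002 over all genes. Counted by whether the groups overlap in CPM, 6 cytosolic and 5 mitochondrial genes had every tumor above every adjacent sample, against 19.6% of all genes, and 1 cytosolic gene, Qars, had every tumor below, against 20.6%.

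Vars, the valine enzyme, changed most. Its CPM in tumors 1319, 1322, 1323 and 1349 was 240.3, 319, 294 and 239, and in the adjacent tissue of the same mice it was 94.2, 94.2, 96.2 and 99.1. Control mice 1315, 1316, 1320 and 1321 had 55.7, 58.5, 53.5 and 63.5. The 3 groups did not overlap. The log2 fold change was 1.51 ± 0.13, adjusted p = 1.37e-05 against adjacent tissue and 2.23 ± 0.14, adjusted p = 1.24e-06 against controls. Hars, the histidine enzyme, was at 68.6, 75.6, 64.2 and 90.8 CPM in the tumors and at 36.7, 41.2, 35.5 and 48.9 in adjacent tissue, in the same order of mice, again without overlap (0.88 ± 0.15, adjusted p = 4.97e-04). For Lars the tumors had 56.99, 72.99, 73.8 and 78.9 and adjacent tissue 36.8, 38.8, 37.3 and 48.5 CPM (0.81 ± 0.15, adjusted p = 0.00111). Yars, the tyrosine enzyme, had 60.4, 70.3, 66.97 and 49.1 and 32.8, 39.2, 26.6 and 47.02 CPM, with its lowest tumor only just above the highest adjacent sample, and both of those from mouse 1349 (0.76 ± 0.18, adjusted p = 0.004).

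Also called were both subunit genes of the phenylalanine enzyme, with log2 fold changes of 0.79 ± 0.18 for Farsa and 0.96 ± 0.25 for Farsb, and Cars at 1.01 ± 0.25, Aars at 0.68 ± 0.19, Kars at 0.50 ± 0.13 and Eprs at 0.48 ± 0.18. In Cars, Farsb, Aars and Eprs the groups overlapped. In an edgeR fit of tumors and adjacent tissue alone, without the controls, Eprs was not called (adjusted p = 0.0884), and with mouse added as a block to that fit Aars (0.0738) and Eprs (0.0946) were not called. Eprs also lost its call when tumor 1349, 1323, 1322 or 1319 or adjacent sample 1323, 1322 or 1319 was left out (adjusted p 0.0521 to 0.135). Of the cytosolic genes not called, Gars had 101, 111, 436 and 178 CPM in adjacent samples 1319, 1322, 1323 and 1349, where 1323 was far above the rest, and 169, 171, 224 and 202 in tumors. Mars1 and Sars were called higher with DESeq2's size factors in edgeR (0.59, adjusted p = 0.0314, and 0.54, adjusted p = 0.0331). They were not called with TMM, the low-count filter and all libraries. With TMM, edgeR called both with no low-count filter (adjusted p = 0.0498 and 0.0404) and without adjacent sample 1349 (0.00489 and 0.0419). Nars, the asparagine enzyme, and Iars were not called, at 0.17 ± 0.20, adjusted p = 0.508 and 0.027 ± 0.21, adjusted p = 0.931.

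Among mitochondrial genes Vars2 and Yars2, the counterparts of 2 cytosolic genes that rose, led the list. Vars2 had 33.3, 38.5, 37.99 and 32.4 CPM in tumors and 19.4, 23.6, 19.5 and 20.7 in adjacent tissue of mice 1319, 1322, 1323 and 1349 (0.77 ± 0.15, adjusted p = 0.00138). Yars2 had 15.9, 22.8, 11.99 and 19.2 and 4.69, 9.44, 4.30 and 10.5 CPM (1.27 ± 0.33, adjusted p = 0.00758). No tumor overlapped adjacent tissue in either gene. Ears2, the glutamate enzyme, rose by 0.90 and Tars2, the threonine enzyme, by 0.54 on the log2 scale, and Tars2 was not called without tumor 1322 (adjusted p = 0.0537). Lars2 had 784, 1171, 533 and 945 CPM in tumors and 374, 694, 1009 and 493 in adjacent tissue, with overlap and no call (0.42 ± 0.42, adjusted p = 0.436). Against control tissue Lars2 was not called with all libraries, at 0.97 ± 0.43, adjusted p = 0.0692, and was called without control 1320 and adjacent 1323 together (1.33, adjusted p = 0.0161).

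**Figure D2:**
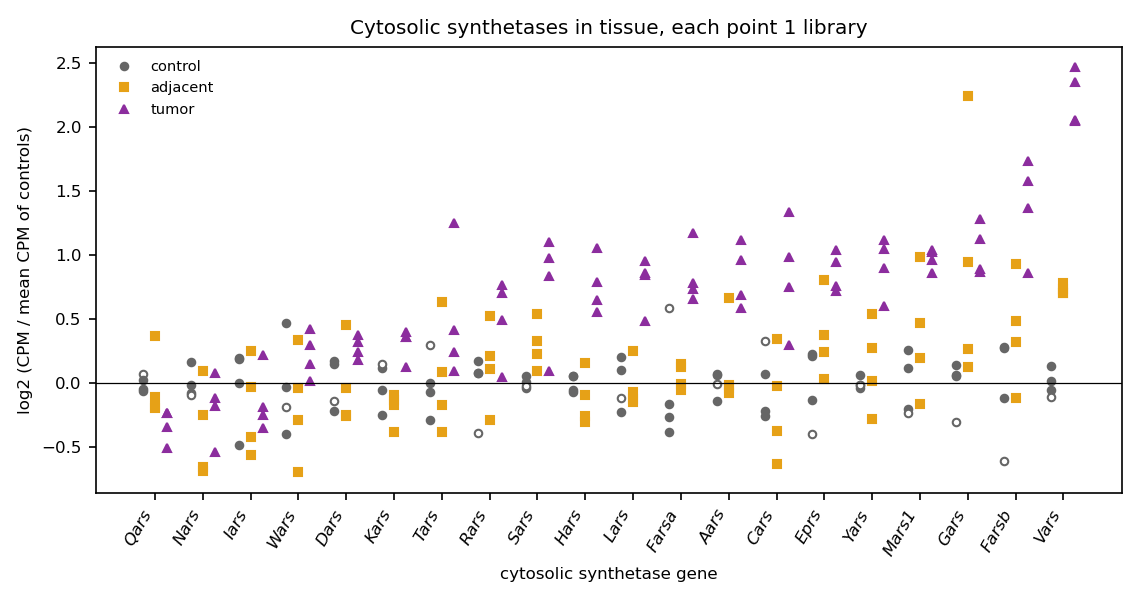
Log2 ratio of each tissue library's CPM to the mean CPM of the 4 controls for the 20 cytosolic genes, ordered by their mean in tumors; circles are controls (the open one is control 1320), squares adjacent tissue and triangles tumors. Vars stands apart with all 4 tumors above 2 and all 4 adjacent samples near 0.7, most other genes have tumor means above 0, and Gars has 1 adjacent sample far above the rest.

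Against the control mice the pattern in tumors was similar in kind, with the same tumor libraries in both comparisons. Of the cytosolic genes 12 rose and 0 fell, against 28.6% of all genes called higher and 26.1% lower, and the median log2 difference was 0.79 against 0.068 over all genes. Every one of the 12 except Cars had all tumors above all controls, as did Dars, against 27.5% of all genes. Farsb, the phenylalanine enzyme's beta subunit, had 94.4, 122, 66.4 and 109 CPM in tumors and 44.5, 33.8, 24.1 and 44.3 in controls 1315, 1316, 1320 and 1321 (1.35 ± 0.26, adjusted p = 7.95e-04). Hars had 42.3, 41.9, 45.5 and 45.7 CPM in those controls (0.78 ± 0.15, adjusted p = 9.43e-04), and Yars had 32.00, 31.6, 32.1 and 33.8 (0.93 ± 0.18, adjusted p = 0.00105). Gars, uncalled against adjacent tissue, was called here (1.03 ± 0.39, adjusted p = 0.0381), and was not called without tumor 1349, 1323 or 1322 or any 1 of the 4 controls (adjusted p 0.0517 to 0.0864).

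Of the 16 mitochondrial genes 4 rose and 2 fell against controls, below the shares of all genes (28.6% higher and 26.1% lower). Vars2, Ears2, Tars2 and Yars2 rose again, by 0.79, 0.97, 0.50 and 1.002 on the log2 scale. Tars2 was not called without tumor 1322, control 1316 or control 1320 (adjusted p 0.0502 to 0.0799), nor Yars2 without tumor 1349, tumor 1322 or control 1316 (0.0542 to 0.091). Fars2, the mitochondrial phenylalanine enzyme, went against them with 12.9, 13.6, 15.4 and 20.6 CPM in tumors and 29.98, 28.6, 40.1 and 26.98 in controls, a separation of all libraries that only Qars shared downwards, against 21.7% of all genes (-0.95 ± 0.21, adjusted p = 0.00193). Its exons overlap those of Lyrm4 and Nrn1 on the other strand over 10.7% of their length, and Nrn1 itself was at 3.55 ± 0.77. Mars2, the mitochondrial methionine enzyme, had 10.6, 5.07, 8.74 and 9.21 and 20.1, 7.69, 10.7 and 20.2 CPM (-0.86 ± 0.33, adjusted p = 0.0414). It was not called without tumor 1349, 1323 or 1322 or control 1315 or 1321 (adjusted p 0.0619 to 0.15).

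Few genes were called between adjacent tissue and the tissue of control mice. Of all 17666 genes 0.792% were called higher and 0.277% lower, and of the 36 synthetase genes 1 was called, Vars (0.72 ± 0.14, adjusted p = 0.0292), which was higher in 4 of 4 adjacent samples than in any control. Sars was the other cytosolic gene without overlap, also higher in adjacent tissue, against 8.22% of all genes. The call was lost without adjacent 1349 or 1319 or any 1 of the 4 controls (adjusted p 0.0584 to 0.113), with the log2 fold change between 0.69 and 0.77 in those fits. It was also lost without control 1320 and adjacent 1323 together (0.69, adjusted p = 0.1019). Gars had the next smallest p among cytosolic genes at 1.14 ± 0.39 (adjusted p = 0.157), with adjacent 1323 at 436 CPM and the other 7 libraries between 74.9 and 178. Eprs (0.36 ± 0.19, adjusted p = 0.342) and Mars1 (0.40 ± 0.22, adjusted p = 0.369) were not called either. Of the mitochondrial genes Fars2 (-0.53 ± 0.21, adjusted p = 0.215) and Iars2 (0.36 ± 0.19, adjusted p = 0.357) came closest, and Fars2 alone of them had an unadjusted p under 0.05. Fars2 was also the 1 member with every adjacent sample below every control, against 5.88% of all genes. Summed neutrophil markers were at 28.2 to 162 CPM in adjacent tissue and 0 to 3.76 in controls, with 2 of 4 called higher, and markers of the proximal small intestine at 100.6 to 1200 against 95.02 to 137, with 0 of 5 called. Their part in the Vars result was not tested.

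Genes that work beside the synthetases were counted in tumors too. Against adjacent tissue 23.0% of all genes were called higher and 24.0% lower, and against controls 28.6% and 26.1%. Of 28 ATF4 target genes other than synthetases, 16 rose and 3 fell against adjacent tissue. Slc7a5, a subunit of the large neutral amino acid transporter, rose from 18.6 to 118 CPM (2.67 ± 0.29, adjusted p = 3.64e-05). Phgdh, the first enzyme of serine synthesis, rose from 9.79 to 102 CPM (3.37 ± 0.40), and Shmt2, a mitochondrial enzyme of serine breakdown, from 32.7 to 103 (1.65 ± 0.19). Of 12 Myc-linked and nucleolar growth genes 11 rose and 0 fell, led by Nop56 (1.58 ± 0.18), Npm1 (1.19 ± 0.20) and Rrs1 (1.33 ± 0.24). Of 6 elongation factor genes 3 rose, Eef1d, Eif5a and Eef1g, by 1.02, 0.86 and 0.63. Against controls 20 of the 28 ATF4 targets rose and 2 fell, and 12 of the 12 growth genes rose. Between adjacent tissue and controls 1 ATF4 target, Ddit4, rose (2.06) and 0 growth genes were called.

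The smaller lists, against adjacent tissue, are to be read beside the same shares of all genes, 23.0% higher and 24.0% lower. Of the 3 scaffold genes of the multisynthetase complex Aimp2 rose (0.72 ± 0.15, adjusted p = 0.00175), while Eef1e1 (0.25 ± 0.27) and Aimp1 (0.060 ± 0.22) were not called. Of 6 genes of eIF2 phosphorylation, 3 rose and 1 fell, with Gcn1l1, a partner of GCN2, and Eif2ak4, GCN2 itself, at 0.63 and 0.56, and Eif2ak1, the heme-regulated kinase, at -0.62. Partners of mitochondrial aminoacylation were divided, with Qrsl1 higher (0.50), Mtfmt lower (-0.64) and Gatb not called (0.64). In the list of proofreading and selenocysteine genes Dtd1 (1.05) and Pstk (0.54) rose and Sepsecs fell (-1.25). Of 9 mitochondrial translation factors Tsfm (0.86) and Mtrf1 (0.70) rose and Gfm2 fell (-0.93). Of 10 interferon-gamma response genes 0 rose and 1, Ciita, fell (-2.03), while Socs1 (1.13) was not called.

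The cell make-up of tumors also differed from adjacent tissue. Summed fibroblast markers were at 1570 to 12518 CPM in tumors and 174 to 805 in adjacent tissue, with 3 of 5 called higher, and neutrophil markers were at 202 to 1745 against 28.2 to 162, with 4 of 4 called higher. Smooth muscle markers were at 96.8 to 732 against 1827 to 3195 CPM, with 5 of 5 called lower, and 5 of 6 goblet cell markers were called lower. Markers of proliferating cells were at 373 to 645 against 92.3 to 276 CPM, with 4 of 5 called higher. Macrophage markers were at 343 to 857 against 68.3 to 330 CPM, with 3 of 5 called higher, and acinar pancreas markers at 56.4 to 307 against 8.42 to 14.4, with 1 of the 2 tested called higher. Epithelial markers were at 6471 to 10011 against 9130 to 15839 CPM, with 1 of 6 called higher and 4 lower. Markers of the proximal small intestine were at 152 to 1578 CPM in tumors and 100.6 to 1200 in adjacent tissue. Tumors 1319, 1322 and 1349 were above their adjacent samples (1325, 233 and 1578 against 182, 115 and 100.6). Tumor 1323 was below its own (152 against 1200). In control tissue the sums were 402 to 626 CPM for fibroblast, 0 to 3.76 for neutrophil, 2975 to 4760 for smooth muscle and 212 to 268 for proliferating cell markers. For proximal small intestine markers they were 95.02 to 137, below every tumor. Their part in the synthetase results was not tested.

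In organoids few synthetase genes were called after loss of Rnaseh2b alone. Of 20 cytosolic genes 0 rose and 1 fell, and of 16 mitochondrial genes 1 rose and 1 fell, against 2.08% of 15701 genes called higher and 1.97% lower. Cars, the cysteine enzyme, had 128, 122 and 127 CPM in control libraries A, B and C and 103, 107 and 109 in H2BdIEC A, B and C, without overlap (-0.24 ± 0.061, adjusted p = 0.0458). Its call was lost without H2BdIEC B or any 1 control (adjusted p 0.102 to 0.146). The next 3 genes by p were Gars (-0.19 ± 0.063), Mars1 (-0.23 ± 0.076) and Aars (-0.25 ± 0.082), all uncalled with adjusted p between 0.115 and 0.12, though all 3 had every H2BdIEC library below every control, against 10.6% of all genes.

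Mars2, Nars2 and Iars2 had every H2BdIEC library above every control, against 11.4% of all genes, and 1 of them was called. Mars2 rose from 58.7, 47.8 and 50.2 to 83.6, 65.7 and 68.9 CPM (0.47 ± 0.10, adjusted p = 0.0202) and was not called without control B or C (adjusted p 0.0761 to 0.107). Vars2 fell from 90.3, 92.02 and 103 to 66.7, 79.7 and 79.99 CPM (-0.32 ± 0.082, adjusted p = 0.0458) and was not called without H2BdIEC B or any 1 control (adjusted p 0.0672 to 0.153). The lowest H2BdIEC value of Vars2 and the highest of Mars2 both came from H2BdIEC A, the library with the fewest counts among organoids. In a fit of these 2 groups alone none of the 3 calls remained (adjusted p = 0.0862 for Mars2 to 0.2096 for Cars). Of the 28 ATF4 targets 0 rose and 4 fell, the first 3 being Asns, asparagine synthetase (-0.42), Nupr1 (-0.36) and Slc1a5, a glutamine carrier (-0.45). Of 6 interferon-gamma response genes tested, Psmb9 fell (-0.78) and Cxcl10 (-1.12) and Tap1 (-0.23) were not called. None of the growth, scaffold, partner, proofreading, eIF2 phosphorylation, elongation or mitochondrial translation factor genes was called by edgeR, the first of the growth genes by p being Myc (-0.29). Summed Paneth cell markers were at 933 to 964 CPM in H2BdIEC and 1136 to 1349 in control organoids, with 3 of 5 called lower, and their part was not tested.

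With p53 deleted as well, most cytosolic genes fell. Against control organoids 13 of 20 cytosolic genes fell and 0 rose, against 16.6% of all genes called lower and 16.7% higher. The median log2 difference was -0.31 over the cytosolic genes and -0.004 over all genes. Against H2BdIEC organoids, which share the H2Bp53dIEC libraries with that comparison, 11 cytosolic genes fell and 3 rose, with 15.4% of all genes called lower and 13.9% higher, and the median was -0.29. In 14 cytosolic genes every H2Bp53dIEC library lay below every control, against 27.3% of all genes, and in Hars, Kars and Wars every one lay above, against 27.2%. Those 3 were uncalled, but a fit of these 2 groups alone called all 3 higher (Hars 0.17, adjusted p = 0.027 in edgeR; Kars 0.17, 0.0236; Wars 0.14, 0.040). Against H2BdIEC, 13 cytosolic genes had every H2Bp53dIEC library lower and 3 every one higher, against 22.7% and 23.0% of all genes. Qars, the glutamine enzyme, was the 1 cytosolic gene that edgeR with TMM factors, in fits of all groups of a set, called in none of the 7 comparisons, at 202, 196 and 198 CPM in H2Bp53dIEC and 207, 212 and 214 in control organoids.

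Cars fell most. The H2Bp53dIEC libraries 1, 2 and 3 had 60.8, 62.9 and 62.6 CPM, below H2BdIEC and control libraries alike, with log2 fold changes of -1.02 ± 0.061, adjusted p = 3.26e-07 against controls and -0.78 ± 0.062, adjusted p = 4.02e-06 against H2BdIEC. For Yars they had 74.2, 76.2 and 74.6 CPM, where controls had 135, 122 and 139 and H2BdIEC 110.1, 123 and 122 (-0.82 ± 0.072, adjusted p = 6.42e-06 against controls). The same step down from both other groups was seen in the next genes. Sars, the serine enzyme, had 253, 248 and 242, 403, 373 and 410.5 and 312, 366 and 342 CPM in the same order of groups (-0.67 ± 0.073, adjusted p = 3.11e-05), so that its H2BdIEC libraries lay between the others in every case. Gars had 268, 276 and 278, 414, 397 and 419.6 and 378, 351 and 348 CPM (-0.58 ± 0.063, adjusted p = 3.10e-05). Nars was at 716, 681 and 658 CPM in H2BdIEC organoids against 742, 668 and 734 in controls, and was at 466, 474 and 472 in H2Bp53dIEC (-0.54 ± 0.067, adjusted p = 1.19e-04 against H2BdIEC).

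The other falls against controls were in Aars, Mars1, Iars, Rars, Eprs, Tars, Dars and Farsb, with log2 fold changes between -0.60 (Aars) and -0.23 (Farsb). Counts for Iars are uncertain, since the gene model Gm4849 is 96.0% identical to it over 1656 bases. Those for Aars are uncertain too, since 14.3% of its exon bases are shared with Exosc6 on the same strand. Exosc6 is not among the gene identifiers present in every library, so Aars may miss reads or hold reads of Exosc6. Farsb was not called without H2Bp53dIEC 1 or control C (adjusted p 0.0592 to 0.0788). Tars was not called without any 1 H2Bp53dIEC library or control A or C (adjusted p 0.0582 to 0.0815), nor Dars without any 1 H2Bp53dIEC library or control A or B (adjusted p 0.0844 to 0.1). The genes of the multisynthetase complex, a grouping made with these values in view, gave 5 of 8 lower and a median log2 difference of -0.30, beside 8 of 12 lower and -0.44 outside it. Kars, Lars and Qars in the complex and Farsa, Hars, Vars and Wars outside it were not called against controls.

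Vars, Kars and Wars went the other way against H2BdIEC organoids. Vars had 342, 306 and 303 CPM in H2Bp53dIEC and 198, 259.9 and 275 in H2BdIEC libraries (0.37 ± 0.11, adjusted p = 0.0246), but controls, at 283, 272 and 321, overlapped the former. Kars, the lysine enzyme, had 209, 204 and 196 against 149.99, 164 and 178 CPM (0.30 ± 0.079, adjusted p = 0.013), and Wars, the tryptophan enzyme, 159.6, 153 and 156 against 113, 141 and 139 (0.25 ± 0.084, adjusted p = 0.0454). In all 3, H2BdIEC A was the lowest library. The calls of Vars (adjusted p 0.0565 to 0.108) and Kars (0.0507 to 0.0605) were lost without H2Bp53dIEC 1 or 2, and that of Wars without H2BdIEC A or any 1 H2Bp53dIEC library (0.0548 to 0.136). Mars1, called lower in this comparison (-0.27 ± 0.077, adjusted p = 0.0187), lost its call without H2BdIEC B or C or any 1 H2Bp53dIEC library (adjusted p 0.0523 to 0.0756).

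**Figure D3:**
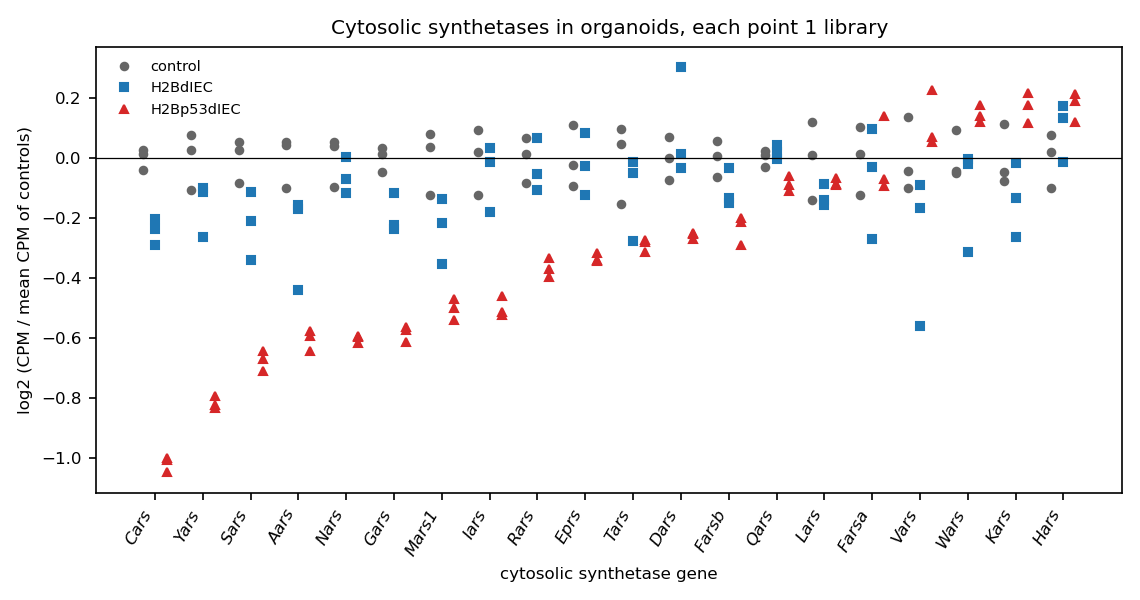
Log2 ratio of each organoid library's CPM to the mean CPM of the 3 controls for the 20 cytosolic genes, ordered by their mean in H2Bp53dIEC; circles are controls, squares H2BdIEC and triangles H2Bp53dIEC. The triangles run from about the level of -1.02 for Cars to above 0 for Hars, Kars and Wars, and lie close together in most genes.

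The 4 cytosolic genes whose promoters hold the composite core, shown above, were all called lower against control organoids (Aars -0.60, Iars -0.50, Tars -0.29 and Yars -0.82; median -0.55). Of the 9 cytosolic genes with a matched promoter that lacks it, 6 were called lower, with a median of -0.26. In tumors the same 4 genes gave 2 calls against adjacent tissue, Aars and Yars, both higher, and a median of 0.58, and the 9 others gave 4 calls and a median of 0.49. With 4 genes on 1 side these medians are a description.

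Most of the ATF4 target list fell in the same libraries. Of its 28 genes 22 fell and 0 rose against control organoids (median log2 difference -0.65), and 17 fell and 0 rose against H2BdIEC (-0.45). Chac1, a glutathione-degrading enzyme, went from 52.2 to 9.91 CPM (-2.40 ± 0.15, adjusted p = 5.23e-07), Nupr1, a stress-induced transcription cofactor, from 274 to 116 (-1.23 ± 0.078) and Asns from 426 to 223 (-0.93 ± 0.066). Against H2BdIEC the first by p were Sesn2, a sensor of leucine that p53 also regulates (-1.68 ± 0.12), Chac1 (-2.01 ± 0.16) and Cebpg (-0.90 ± 0.079).

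Growth genes rose in the same libraries. Of the 12 Myc-linked and nucleolar genes 7 rose and 0 fell against controls, led by Nolc1 (0.56 ± 0.083), Dkc1 (0.42 ± 0.074) and Nop58 (0.41 ± 0.074), and 8 rose against H2BdIEC, among them Nop56 (0.38). Interferon-gamma response genes were higher too: of the 6 tested, 4 rose against H2BdIEC, with Cxcl10 at 3.70, Irf1 at 0.77 and Psmb9 at 1.19, and 3 rose against controls. Wars, the synthetase gene known from that response, was called higher against H2BdIEC, as given above. That call was lost without H2BdIEC A or any 1 H2Bp53dIEC library. Against controls Wars was at 0.15 ± 0.083 and was not called (adjusted p = 0.201). An edgeR fit of H2Bp53dIEC and control organoids alone called it higher there (0.14, adjusted p = 0.040). None of the 3 scaffold genes and none of the 5 mitochondrial aminoacylation partners was called in either comparison, the first by p against controls being Eef1e1 (-0.14), Aimp2 (0.15), Qrsl1 (-0.19) and Mtfmt (-0.20). Of the 6 eIF2 phosphorylation genes 3 rose against controls, Eif2ak2, Eif2ak3 and Eif2ak1, by 0.64, 0.27 and 0.21, while Gcn1l1 (0.34) and Eif2ak2 (0.51) rose against H2BdIEC, and 2 elongation factors fell against controls, Eef2 (-0.32) and Eef1b2 (-0.28). Of 5 proofreading and selenocysteine genes tested none was called against controls, the nearest being Dtd1 (0.24), and Dtd2 rose against H2BdIEC (0.31). Of 5 proliferation markers 4 were higher against controls, with sums of 1672 to 1735 CPM against 1395 to 1530, and their part in the synthetase values was not tested.

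Of the 16 mitochondrial synthetases 1 rose and 3 fell against control organoids, near or below the shares of all genes given above (16.7% higher and 16.6% lower), and the median of 0.003 is near 0, with a sign that changes with the filter on low counts. Rars2, the arginine enzyme, had 36.8, 42.8 and 45.98 CPM in H2Bp53dIEC, 61.1, 56.8 and 53.4 in control and 74.2, 64.2 and 60.2 in H2BdIEC libraries (-0.45 ± 0.10, adjusted p = 0.00433 against controls, -0.65 ± 0.10, adjusted p = 6.35e-04 against H2BdIEC). Sars2, the serine enzyme, rose while Sars fell: it had 23.4, 21.7 and 20.8 CPM against 14.8, 14.3 and 17.4 in controls (0.51 ± 0.15, adjusted p = 0.019) and 10.5, 15.2 and 18.6 in H2BdIEC libraries (0.52 ± 0.15, adjusted p = 0.0241). Its call against controls was lost without H2Bp53dIEC 1 or 2 or control A or B (adjusted p 0.0581 to 0.0865), and that against H2BdIEC without H2BdIEC B or H2Bp53dIEC 1 or 2 (0.0643 to 0.0904).

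Against H2BdIEC 4 of the 16 mitochondrial genes fell and 1, Sars2, rose, with 15.4% of all genes called lower and 13.9% higher. Nars2, the asparagine enzyme, had 21.8, 22.7 and 21.4 against 28.9, 29.01 and 27.7 CPM (-0.37 ± 0.081, adjusted p = 0.00477), while controls had 23.7, 23.3 and 24.9. Mars2 (-0.37 ± 0.10, adjusted p = 0.0151) and Wars2 (-0.30 ± 0.091, adjusted p = 0.0274) made up the rest. Mars2 was not called without H2Bp53dIEC 2 or 3 (adjusted p 0.0519 to 0.0521), nor Wars2 without H2BdIEC B or any 1 H2Bp53dIEC library (0.0657 to 0.118). Vars2 was lower against controls (-0.23 ± 0.080, adjusted p = 0.0418), and not without any 1 of the 6 libraries compared (adjusted p 0.0501 to 0.157). Of 9 mitochondrial translation factors 3 fell and 1 rose against controls, with Gfm2 at -0.58, Mtrf1l at -0.72 and Tufm at -0.35. Against H2BdIEC 2 fell, Gfm2 (-0.59) and Mtrf1l (-0.82).

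In crypts of aged mice the cytosolic genes were not called at all. With 5.16% of 14596 genes called higher and 4.87% lower, 0 of 20 cytosolic genes passed in edgeR and 5 had an unadjusted p under 0.05. DESeq2 called Kars and Qars lower, as did edgeR with upper-quartile factors. The median log2 difference between H2BdIEC and control crypts was -0.13, against -0.0054 over all genes. Kars had 74.7, 58.5, 79.3 and 78.1 CPM in H2BdIEC crypts 1 to 4 and 103, 90.7, 91.6 and 91.4 in controls 1 to 4 (-0.37 ± 0.11, adjusted p = 0.0533). Qars had 132, 122, 133 and 129.7 and 158, 152, 166 and 153 CPM (-0.29 ± 0.086, adjusted p = 0.0585). Farsb had 50.98, 36.1, 52.2 and 48.1 and 59.1, 60.4, 55.8 and 66.5 (-0.37 ± 0.12, adjusted p = 0.074), and Wars 61.9, 57.3, 63.3 and 54.7 and 81.7, 63.8, 68.02 and 67.9 (-0.25 ± 0.10, adjusted p = 0.131). In these 4 genes and Aars every H2BdIEC library lay below every control, against 10.3% of all genes.

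Of the mitochondrial genes 1 rose and 2 fell in the H2BdIEC crypts. Without overlap between groups, 1 mitochondrial gene, Lars2, was higher, against 8.54% of all genes, and Iars2, Ears2 and Fars2 were lower. Iars2, the isoleucine enzyme, had 69.6, 49.3, 65.6 and 67.5 CPM against 94.3, 85.1, 90.8 and 86.1 in controls (-0.50 ± 0.11, adjusted p = 0.0217), with H2BdIEC 2 the lowest. It was not called without control 1, control 3 or H2BdIEC 4 (adjusted p 0.0566 to 0.0688). Antisense genes, among them Rab3gap2, cover 24.2% of its exon bases, and Rab3gap2 itself was at 0.12 ± 0.094. Ears2 fell from 18.2, 16.6, 19.8 and 18.3 to 15.3, 13.9, 13.7 and 13.96 CPM (-0.36 ± 0.10, adjusted p = 0.0439), and was not called without any 1 of controls 1, 3 and 4 or H2BdIEC 2, 3 and 4 (adjusted p 0.0783 to 0.139).

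Lars2 rose in H2BdIEC crypts and fell in H2Bp53dIEC organoids. It had 143, 199, 229 and 211 CPM in H2BdIEC crypts and 85.8, 74.6, 104 and 93.6 in controls (1.13 ± 0.16, adjusted p = 0.00288), the 1 of 3 member calls in crypts that held in all 14 alternative fits. In organoids controls had 403, 457 and 471, H2BdIEC 206, 349 and 409.98 and H2Bp53dIEC 220.3, 105 and 293 CPM, with log2 fold changes of -0.46 ± 0.36, adjusted p = 0.518 and -1.11 ± 0.36, adjusted p = 0.0456 against controls. The latter was not called without H2Bp53dIEC 1 or control B or C (adjusted p 0.0825 to 0.0873), nor in an edgeR fit of H2Bp53dIEC and control organoids alone (0.0963). With no low-count filter edgeR called Lars2 lower in H2BdIEC than in control organoids (-0.47, adjusted p = 1.47e-06). In that setting Lars2 was also lower in H2Bp53dIEC than in H2BdIEC (-0.66, adjusted p = 1.92e-13). In both cases the groups overlap in CPM. The H2BdIEC fold change hardly moved from the filtered fit (-0.46, adjusted p = 0.518), so these small p-values rest on the setting. H2Bp53dIEC libraries differed from each other more in Lars2 than in any cytosolic gene plotted above.

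A test of the difference between the H2BdIEC effects in organoids and in crypts called 2 members, where 1.72% of 17163 genes were called with a higher and 2.30% with a lower effect in organoids. The Lars2 effect was lower in organoids by 1.60 on the log2 scale (-1.60 ± 0.29, adjusted p = 0.0072), and the Iars2 effect was higher (0.57 ± 0.15, adjusted p = 0.0429). The Iars2 call was lost without crypt control 1 or 3, crypt H2BdIEC 3 or 4, or any 1 of the 6 organoid libraries (adjusted p 0.0519 to 0.115). Among cytosolic genes 0 were called by edgeR and 1, Qars, by DESeq2 (0.31, adjusted p = 0.0091), the first by p being Qars (0.29 ± 0.12), Mars1 (-0.31 ± 0.13), Yars (-0.27 ± 0.13) and Cars (-0.33 ± 0.16), and 2 of the 20 had an unadjusted p under 0.05. Of the ATF4 targets Slc7a11 had a higher effect in organoids (2.09) and Ddit3 a lower one (-1.03).

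Gene models close to ribosomal RNA were looked up beside Lars2 after its values were seen. Of the Lars2 transcripts 2 matched the gene model Gm15564, of which Lars2-201 shares 72 bases, 98.6% identical, and none of the transcripts matched mt-Rnr2, mt-Rnr1, Gm26917 or Gm42418. As CPM without TMM factors, Gm15564 was at 61.8 to 74.0 in control organoids, 36.7 to 57.6 in H2BdIEC and 9.95 to 40.6 in H2Bp53dIEC, and the library lowest in it, H2Bp53dIEC 2, was also lowest in Lars2. In tumors Gm15564 was at 7.89 to 15.03, in adjacent tissue at 4.21 to 8.04 and in control tissue at 2.002 to 5.03. It was at 0.0644 or below in crypts, where Gm26917, a model that overlaps ribosomal RNA sequence, was at 41290 to 63656 in H2BdIEC and 11493 to 21893 in control crypts. The part of such reads in the Lars2 values was not tested.

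**Figure D4:**
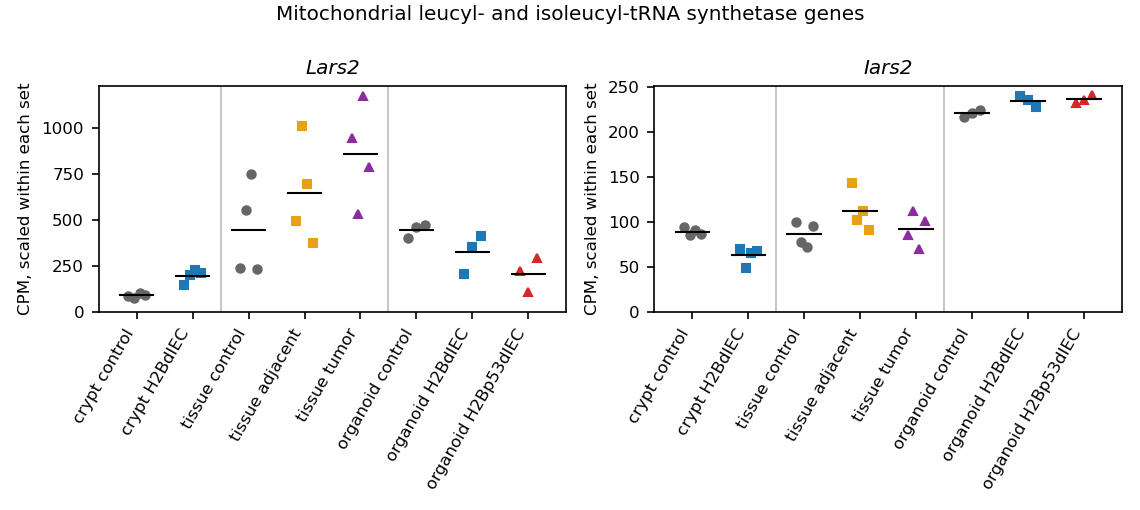
CPM of Lars2 and Iars2 in each library by group, with bars at group means and grey lines between crypts, tissue and organoids, each set scaled on its own. Lars2 is higher in H2BdIEC than in control crypts and lower in H2Bp53dIEC than in control organoids, with wide spread in tissue; Iars2 is lower in H2BdIEC crypts and about level across organoid groups.

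The other crypt lists gave few calls. Of 27 ATF4 targets tested 2 rose and 4 fell, with Sesn2 higher (0.89) and Slc38a2, a neutral amino acid carrier (-0.52), and Slc7a11, the cystine carrier (-1.85), lower. Odc1 alone rose of the 12 growth genes (0.43), Npm1 (-0.43) and Nop56 (0.24) not being called, and Psmb9 alone fell of the interferon list (-0.57). None of the scaffold genes, the aminoacylation partners, the eIF2 phosphorylation genes, the elongation factors or the mitochondrial translation factors was called. Summed Paneth cell markers were at 1444 to 2277 CPM in H2BdIEC and 3915 to 9612 in control crypts, with 4 of 5 called lower. Markers of the proximal small intestine were at 2005 to 2855 against 827 to 1702, with 3 of 5 called higher. Goblet cell markers were at 6744 to 10166 CPM in H2BdIEC and 13193 to 23079 in control crypts, and epithelial markers at 7100 to 7894 against 8463 to 10436. Proliferating cell markers were at 460 to 754 against 677 to 1032 CPM, with overlap. These sums are without TMM factors. Acinar pancreas markers were at 19.2 to 353 against 5.18 to 9.09 CPM, with 0 of 6 tested called, and the part of these cells was not tested.

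**Figure D5:**
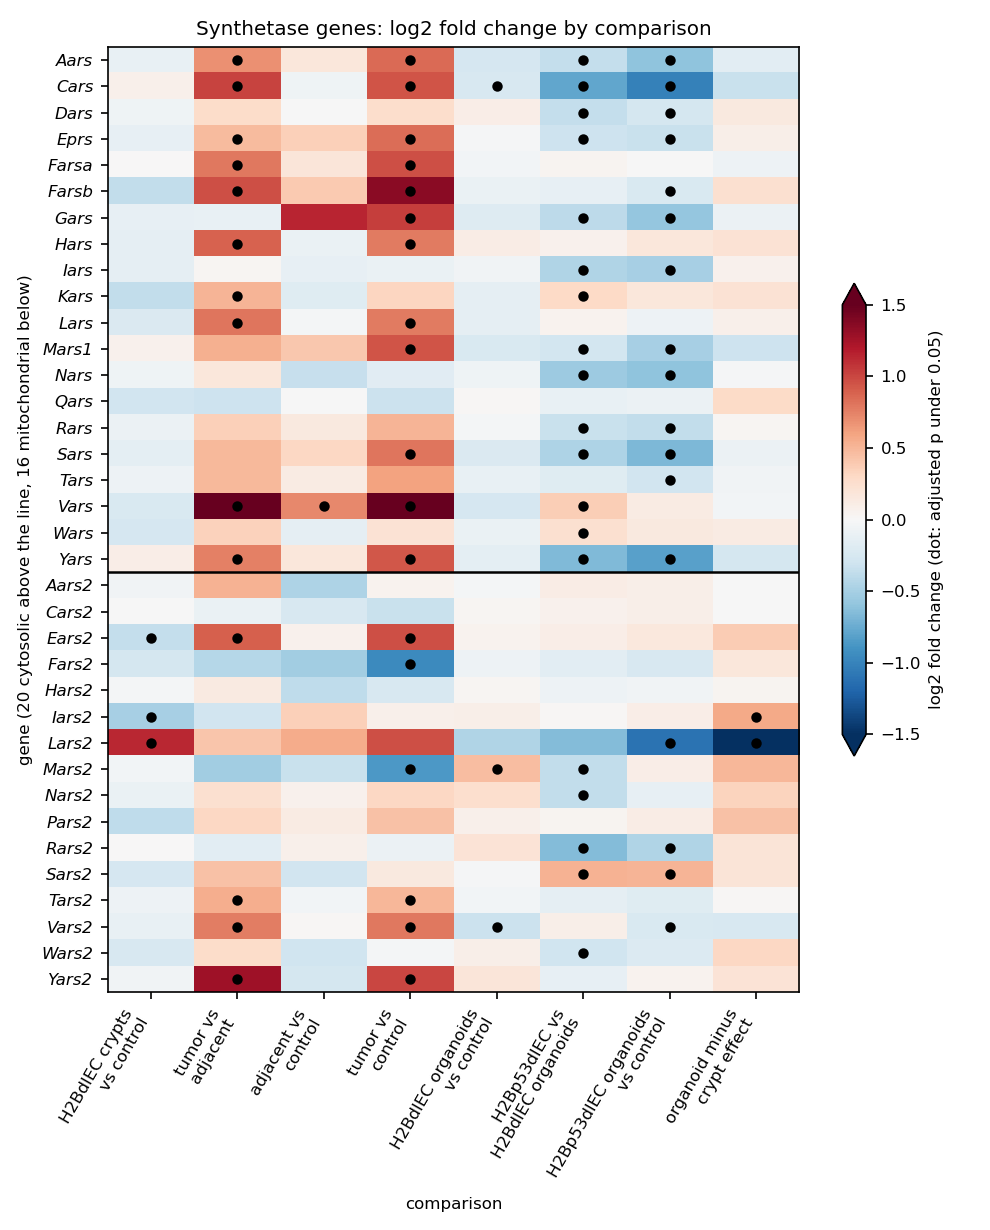
Log2 fold change (colour, limited to -1.5 to 1.5) of the 36 genes in the 7 comparisons and in the test of the organoid minus crypt effect; a black dot marks an adjusted p under 0.05. Cytosolic genes, above the line, are mostly higher in the tumor columns and lower in the H2Bp53dIEC columns, and mitochondrial genes, below it, carry fewer dots, in both directions.

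Tumors, their adjacent tissue and H2Bp53dIEC organoids carry the same deletions, so tumors against adjacent tissue compare tissues of 1 genotype. Tumors against control mice and H2Bp53dIEC against control organoids set deleted beside control samples, but not by genotype alone. Tumors also differ from control tissue in cell make-up, and in the organoids genotype and preparation cannot be told apart. The tissue and organoid comparisons share no library. Of the 12 cytosolic genes higher in tumors than in control mice, 8 were lower in H2Bp53dIEC than in control organoids: Aars, Cars, Eprs, Farsb, Gars, Mars1, Sars and Yars. Most of the 20 cytosolic genes were lower in those organoids, against 16.6% of all genes. Of the cytosolic genes not called in tumors against control mice, 5 were lower there too. Being lower in the organoids was therefore not particular to genes higher in tumors. Across the 20 genes the log2 fold changes had a Pearson r of 0.026 and a Spearman rho of -0.16. Of the 10 cytosolic genes higher in tumors than in adjacent tissue, 5 were lower in H2Bp53dIEC than in control organoids: Aars, Cars, Eprs, Farsb and Yars. The other 5, Farsa, Hars, Kars, Lars and Vars, were not called in the organoids, where their log2 fold changes were -0.004, 0.17, 0.17, -0.080 and 0.12. A further 8 were lower in the organoids without a call between tumor and adjacent tissue. Here the Pearson r was 0.13 and the Spearman rho 0.14. Both pairs of correlations are a description over genes that share libraries within each comparison. Cars was at 1.01 ± 0.25 in tumors against adjacent tissue and -1.02 ± 0.061 in H2Bp53dIEC against control organoids, called in opposite directions. Vars was at 1.51 ± 0.13 and 0.12 ± 0.11 in the same comparisons, called in tumors and uncalled in organoids. The comparisons are unlike, since only the organoid one sets deleted samples beside controls. The difference between the effects in tissue and in organoids was not tested.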

How the data were processed

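RNA was sequenced from crypts, tissue and organoids after poly(A) selection with a stranded kit, per the labels' protocols. Counts per gene were deposited by the authors, 1 table per library. Per the submitters' processing notes, cutadapt 1.5 and 1.9, Trimmomatic 0.36, TopHat2 2.0.14 and HTSeq were used with GRCm38; the counting's strand setting is not given in the sources used here, so overlaps with antisense genes are uncertain. Members were matched by symbol through the annotation GENCODE M21 on GRCm38.

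Each set (crypts, 8 libraries; tissue, 12; organoids, 9) was fitted alone with edgeR 4.0.16 (TMM, filterByExpr, robust quasi-likelihood F test, 1 coefficient per group), and crypts and organoids together, 14 libraries, for the difference of effects. CPM uses TMM factors within a set. Scripts were tested on simulated data. Tumor and adjacent samples pair by mouse, per the labels; the correlation of same-mouse deviations was 0.19, -0.19, 0.16 and 0.04. No replicate pair was identical (0 of 39). Named genes were, per comparison, the 4 cytosolic and 2 mitochondrial members of smallest p, members called against their class's direction, and the 3 genes of smallest p in each companion list. The members and lists were chosen with earlier results of these data known. DESeq2 1.42.0, other scalings and filters, blocks and left-out libraries were the alternatives. Library totals set the precision; tissue control 1320 is the shallowest.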

Additional observations from a re-analysis of the deposited data

Results flagged for a closer look

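The spread within groups of 4 was examined for each of the 36 genes in CPM, and 14 of 180 groups (7.78%) held 1 library far from the other 3, where chance gives about 1 in 20. In control crypts these were Dars at 59.3 in control 4 (the others at 48.7 to 50.5), Kars at 103 in control 1 (90.7 to 91.6), Hars2 at 24.4 in control 2 (22.9 to 23.0) and Sars2 at 8.42 in control 4 (11.4 to 11.7). In H2BdIEC crypts, crypt 1 stood high in Vars at 131 (102 to 105) and in Ears2 at 15.3 (13.7 to 13.96).

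In adjacent tissue, sample 1349 was high in Aars at 154 (91.7 to 95.7) and in Lars at 48.5 (36.8 to 38.8), sample 1323 was high in Qars at 256 (173 to 184), and sample 1319 was low in Ears2 at 6.99 (10.1 to 10.7) and in Rars2 at 23.3 (28.5 to 29.3). Tumor 1319 was low in Kars at 116 (136 to 139.5). The shallow control 1320 was high in Farsa at 40.1 (20.5 to 23.8) and in Aars2 at 24.1 (11.5 to 12.5).

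The H2BdIEC effect in organoids minus that in crypts was -1.60 for Lars2 and 0.57 for Iars2 on the log2 scale, and both differences passed the test in the fit over both sets.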

How the results depend on the processing

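No call of a synthetase gene reversed in any alternative. These counts moved by over 1.5 times with all libraries or without control 1320 and adjacent 1323 together. Cytosolic genes called lower in H2BdIEC crypts were 2 with upper-quartile factors, 2 with DESeq2 and 1 with no low-count filter (0 in edgeR), and mitochondrial ones 1 with no filter (2). In adjacent tissue against controls the 1 cytosolic call was lost, to 0, with no filter and without control 1320 and adjacent 1323. In tumors against controls, 1 mitochondrial gene was lower with DESeq2 size factors, 1 with upper-quartile factors, 1 with no filter and 1 with only the 2 groups compared (2), and in that last fit 1 cytosolic gene was lower (0). In H2BdIEC organoids cytosolic genes called lower were 2 with DESeq2, 2 with no filter and 0 with only the 2 groups compared (1), mitochondrial ones 2 with no filter and 0 with only the 2 groups (1), and 0 mitochondrial genes were higher in that fit (1). In H2Bp53dIEC against control organoids, 3 cytosolic genes were higher with only the 2 groups compared (0). For the organoid minus crypt difference, DESeq2 called 1 cytosolic gene higher (0), and with no filter 0 mitochondrial genes were higher (1). Of the 5 highest cytosolic genes by length-scaled level, 3 were among the 5 highest by CPM. The cause of each move was not tested.

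Leaving out 1 library at a time gave these ranges. In crypts 1 mitochondrial gene was higher and 0 to 2 lower, with 0 cytosolic calls. Tumors against adjacent tissue gave 9 to 14 cytosolic and 3 to 4 mitochondrial genes higher, and 0 to 1 mitochondrial lower. Adjacent tissue against controls gave 0 to 1 cytosolic higher. Tumors against controls gave 11 to 14 cytosolic and 2 to 5 mitochondrial higher and 1 to 2 mitochondrial lower. H2BdIEC organoids gave 0 to 2 cytosolic lower and 0 to 1 mitochondrial in each direction. H2Bp53dIEC against H2BdIEC gave 0 to 3 cytosolic higher, 10 to 12 lower, 0 to 1 mitochondrial higher and 2 to 4 lower, and against controls 10 to 12 cytosolic lower, 0 to 1 mitochondrial higher and 1 to 3 lower. The organoid minus crypt difference gave 0 to 1 mitochondrial higher and 1 lower.

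With mouse as a replicate block in a fit of the 2 groups alone, 8 cytosolic and 4 mitochondrial genes were higher in tumors than in adjacent tissue. The same 2 groups without the block gave 9 and 4, and all 3 groups gave 10 and 4. Eprs was uncalled in both fits of 2 groups, and Aars in the blocked one. In organoids the letters A to C are shared by control and H2BdIEC libraries, and same-letter deviations correlated at 0.03, -0.35 and 0.30. Such values cannot decide whether the letters mark pairs, since tumor and adjacent samples of the same mouse gave 0.19, -0.19, 0.16 and 0.04. With the letter as a replicate block in a fit of control and H2BdIEC organoids, 0 cytosolic genes were lower, 1 mitochondrial gene was higher and 0 were lower. Across all alternatives, the calls kept in every fit were 1 of 3 in crypts, 11 of 14 in tumors against adjacent tissue, 0 of 1 in adjacent tissue, 14 of 18 in tumors against controls, 0 of 3 in H2BdIEC organoids, 12 of 19 and 11 of 17 in H2Bp53dIEC organoids against H2BdIEC and controls, and 1 of 2 for the organoid minus crypt difference. The median of all genes in tumors against controls was 0.068 with TMM and 0.151 with DESeq2 size factors.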
